A study of Rattus norvegicus with 12 samples.

Results

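T cells recovered from the CNS parenchyma, the nervous tissue itself, were compared with T cells recovered from the spinal cord meninges, the membranes that cover that tissue. The comparison rests on 6 of the 12 RNA sequencing libraries of the series, chosen by their titles: 3 of CNS parenchyma and 3 of spinal cord meninges, each numbered 1 to 3. The other 6 libraries, 3 of blood and 3 of cerebrospinal fluid (CSF), were used for the shared estimate of the spread and to show where the same genes stood outside these 2 sites. All libraries were made from CD4+ Tmbp cells, T cells specific for myelin basic protein (MBP) that carry green fluorescent protein (GFP), sorted from wild type Lewis rats during experimental autoimmune encephalomyelitis. Every group therefore had the disease and carried the fluorescent label, and no group came from healthy animals. The sources used here do not give the age of the rats, the day of disease, or whether a library came from 1 animal or from several.

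Experimental autoimmune encephalomyelitis is an inflammation of the CNS driven by T cells that recognise myelin, and it serves as a model of multiple sclerosis. In this disease T cells leave the blood through vessels of the meninges, move along the meningeal surface, and can be shed into the CSF or enter the tissue below. In the meninges and in the tissue they meet phagocytes and other cells that can present myelin antigen, and such an encounter can switch T cells into an activated state. The comparison thus sets cells that lie in the tissue against cells in its covering.

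The deposited files list genes by Ensembl identifier, without names. Of the 47357 rows of the RefSeq table at hand 0 carry such an identifier, and 0 of the genes could be given a symbol. The results therefore describe groups of genes by level, by difference and by their values in other sites, and 4 genes are given by identifier, without position, function or sequence. For the same reason the label of CD4+ T cells could not be checked against defining markers, nor the libraries for RNA of glia, phagocytes or meningeal cells. In bulk libraries like these, a difference in the cells recovered and a difference in RNA per cell cannot be told apart.

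Total gene counts ran from 15361310 to 17965790 in the parenchyma libraries and from 11277725 to 15596984 in the meninges libraries. Meninges library 3 stood apart in the number of genes with at least 1 count, 18299 against 14798 to 15423 in the other 5 libraries. Of the 6 libraries it alone held a count for 1983 genes, of which 2 had enough counts over the series to be tested. Meninges library 2 stood apart in the share of file entries listed as aligned to several places, 61.4% against 35.8% to 43.9% in the other 5. Values without these libraries are given beside the counts and genes they change most.

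Libraries with the same number deviated together. The deviations of parenchyma and meninges libraries from their group means correlated at 0.274 for number 1, 0.450 for number 2 and 0.376 for number 3. Between different numbers the correlations lay between -0.367 and 0.026. Deviations from a group mean cancel out within the group, so positive values within numbers lower those between numbers. The comparison was set out with the number as a pairing block, and the block was kept. Each parenchyma library was thus set against the meninges library of its own number. What the number stands for (an animal, a day or a sort) is not given in the labels, so the p-values speak only to the variation among libraries, part of which may be technical.

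T cells of the tissue and of its covering differed in 2428 of 11498 genes tested, 21.1%, by edgeR's quasi-likelihood test at a Benjamini-Hochberg adjusted p under 0.05. Of these, 1305 genes (11.3% of those tested) were higher in parenchyma and 1123 (9.77%) were lower. Most differences were modest in size. The median fold was 1.31 among genes higher and 1.31 among genes lower, and 930 of the higher genes (71.3%) and 851 of the lower genes (75.8%) differed by less than 1.5-fold. A difference of more than 2-fold was seen for 183 genes higher in parenchyma (1.59% of those tested) and 98 genes lower (0.852%). Beyond 4-fold there were 65 genes higher and 20 lower. The larger differences therefore lay more often on the parenchyma side: 65.1% of the genes past 2-fold were higher there, against 53.7% of all genes called. With libraries scaled by their size alone, 37.5% of all genes called and 58.4% of those past 2-fold were higher, so which side held more genes depended on the scaling for all called genes and not for those past 2-fold.

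Without the pairing block 1375 genes were called (12% of those tested), 757 higher and 618 lower, and each of them was also called with the block in the same direction. Leaving out 1 library at a time, the count of genes higher fell to 770 without parenchyma library 2, 851, 846 and 796 without meninges libraries 1, 2 and 3, and 976 and 1153 without parenchyma libraries 1 and 3. The corresponding counts of genes lower were 652, then 655, 681 and 668, then 844 and 998.

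**Figure D1:**
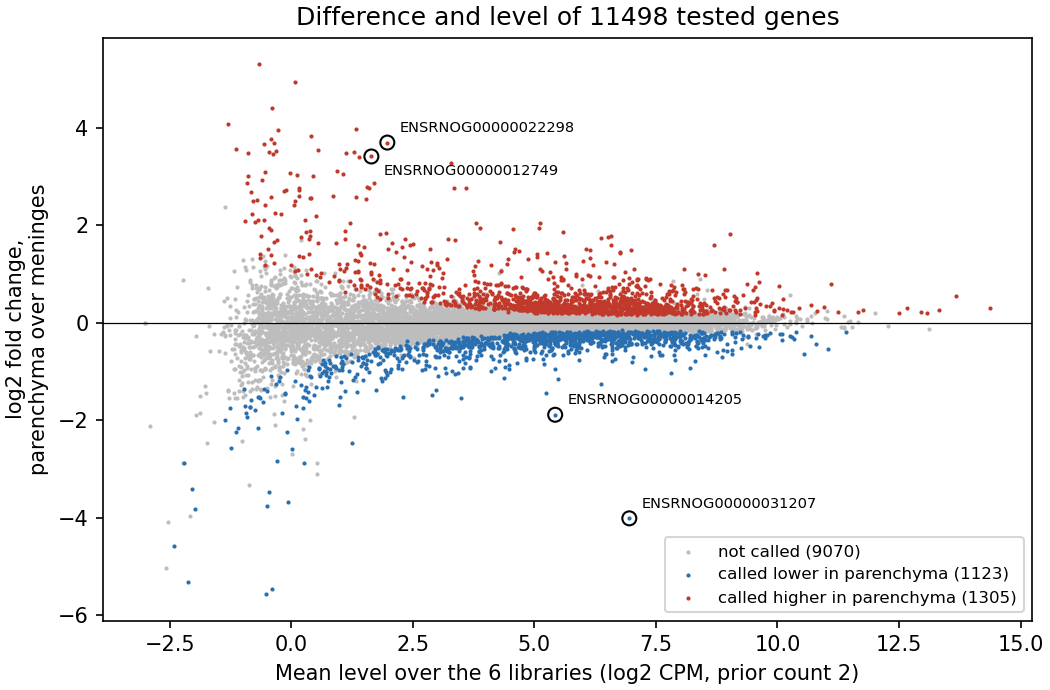
Each point is 1 of the 11498 genes tested, with its mean level over the 6 libraries on the horizontal axis (log2 CPM, prior count 2) and the log2 fold change of parenchyma over meninges on the vertical axis. Red points were called higher in parenchyma (1305), blue points lower (1123) and grey points were not called (9070), and the 4 genes given by identifier are circled.

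The differences were seen library by library and not only in the means. In all 3 pairs the parenchyma library lay on the called side for 1304 of the 1305 higher genes and 1119 of the 1123 lower genes, against 57.3% of all genes tested. The 3 parenchyma libraries did not overlap the 3 meninges libraries for 1103 of the higher genes (84.5%) and 965 of the lower genes (85.9%), against 30.6% of all genes tested. Because the genes were called on these libraries, such shares describe the calls and do not test them.

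A further reading was had by leaving out both libraries of a number, calling genes on the other pairs, and looking at the pair left out. Without pairs 1, 2 and 3, 729, 677 and 787 genes were called higher in parenchyma and 525, 517 and 725 lower. Only those also tested in the full fit, which includes the pair left out, were read. Of 728 such genes called higher without pair 1, 722 (99.2%) were also higher in pair 1. Without pair 2 it was 665 of 665, and without pair 3 it was 774 of 786 (98.5%). Of the genes called lower, 517 of 523 (98.9%), 507 of 514 (98.6%) and 695 of 715 (97.2%) were also lower in pairs 1, 2 and 3. Genes that were not called had the fitted direction in the pair left out for 69.6% to 72.0%. The direction of the genes read thus carried over to a pair of libraries that had no part in the call. That pair did have a part in which called genes were read.

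The size of the difference carried over less evenly. Among genes called higher, the median log2 difference was 0.53, 0.49 and 0.52 in the fits without pairs 1, 2 and 3, and 0.45, 0.61 and 0.40 in the pair left out. The difference read in pair 2 was larger than fitted on the others, and those read in pairs 1 and 3 were smaller. All genes called lower had the same pattern, with -0.49, -0.44 and -0.47 fitted and -0.42, -0.51 and -0.34 in the pair left out. Among genes called higher by more than 2-fold, the fitted medians were 1.73, 1.69 and 1.71. Those of the pair left out were 1.41, 1.81 and 1.53. Among genes called lower by more than 2-fold, the fitted medians were -1.27, -1.40 and -1.44. Those of the pair left out were -0.98, -1.06 and -0.90. Large falls were thus smaller in each pair not used, and large rises in pairs 1 and 3. The differences in the pair left out carry a prior count of 2, which draws those of low genes toward 0. The genes were also chosen for their fitted difference, and such a choice can by itself make fitted values the larger ones. The part of either was not tested.

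**Figure D2:**
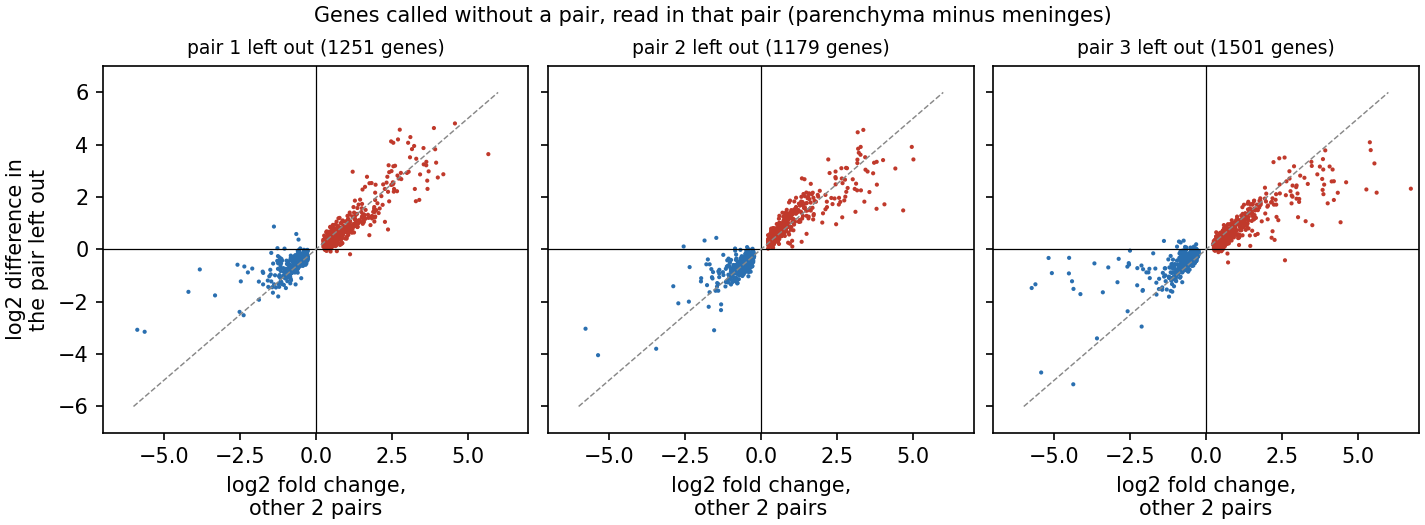
Each panel leaves out the parenchyma and meninges libraries of 1 number. Points are the genes called in the other 2 pairs that were also tested in the full fit. The horizontal axis gives their log2 fold change in those 2 pairs, the vertical axis the log2 difference in the pair left out. Both are parenchyma minus meninges. Red genes were called higher and blue genes lower; nearly all lie on the same side of 0 in the pair left out, and many blue genes with large fitted falls lie closer to 0 there than the dashed line of equality.

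The share of genes called rose with their level, given here in CPM, the count of a gene on a common scale for all libraries. Of 839 genes with a mean under 1 CPM over the 6 libraries 7.75% were called, of 2642 genes from 1 to 10 CPM 15.1%, of 5638 genes from 10 to 100 CPM 21.6%, of 2100 genes from 100 to 500 CPM 31.0%, and of 279 genes above that 34.1%. The median standard error of the log2 fold change was 0.43 under 1 CPM, 0.20 from 1 to 10 CPM, 0.08 from 10 to 100 CPM and 0.07 in each of the 2 highest bands. Most of the large differences called lay among scarce genes, where the larger error leaves small differences uncalled. Under 1 CPM, all 32 genes called higher and 32 of the 33 called lower were past 2-fold. Under 10 CPM there were 128 of the 183 genes past 2-fold higher in parenchyma and 88 of the 98 lower, while above 100 CPM there were 14 and 2.

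The genes called higher in parenchyma made up a larger part of the gene counts there than in meninges. They took 25.6%, 26.4% and 24.7% of gene counts in parenchyma libraries 1, 2 and 3 and 20.6%, 20.2% and 20.5% in the meninges libraries. The gain of 5.13 percentage points was concentrated: 10 genes accounted for 30.3% of it, with a median level of 7870 CPM in parenchyma, and 50 genes for at least 50% of it. Genes past 2-fold contributed only 9.69% of the gain.

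The genes called lower took 9.91%, 9.83% and 10.5% of gene counts in parenchyma libraries 1, 2 and 3 and 13.1%, 13.7% and 13.4% in the meninges libraries. Their share fell by 3.30 points, spread over more genes, with 14.7% of it in the 10 largest contributors and 96 genes for at least 50% of it. Both sets were chosen on these libraries, so the shares describe the size of the shift.

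The 183 genes more than 2-fold higher in parenchyma were mostly scarce outside the tissue. They took 0.766%, 0.935% and 0.775% of gene counts in the parenchyma libraries and 0.353%, 0.323% and 0.311% in the meninges libraries. In CSF they took 0.128% ± 0.0162 (SD, n = 3) and in blood 0.0788% ± 0.00244. The median level of the set was 4.86 CPM in parenchyma, 1.41 CPM in meninges, 0.684 CPM in CSF and 0.689 CPM in blood. The set was thus low in blood and in CSF alike, and the meninges stood between CSF and parenchyma. A gene could pass the filter through its level in parenchyma alone. Low levels elsewhere therefore follow in part from how the set was formed, and they are no test.

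Within these 183 genes the pattern over the 4 sites varied. The means were in the order blood, CSF, meninges, parenchyma, from low to high, for 84 of them. For 60 genes the mean was under 1 CPM in blood, CSF and meninges and at least 1 CPM in parenchyma alone. Of these, 5 reached 5 CPM and the highest stood at 10.1 CPM. Such genes could pass the filter through the parenchyma libraries, so this count describes the set and is no test. The CSF mean lay below the meninges mean for 169 of the 183. In 55 genes, by contrast, the blood mean lay above the meninges mean, and in 3 it lay above the parenchyma mean too. The same counts over all genes tested are not given here, so these describe the set alone.

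The 98 genes more than 2-fold lower in parenchyma took 0.116%, 0.249% and 0.122% of gene counts in meninges libraries 1, 2 and 3 and 0.0369%, 0.0443% and 0.0555% in parenchyma. Much of the high value of meninges library 2 came from 1 gene, ENSRNOG00000031207, described below. Without it the shares were 0.0888%, 0.112% and 0.0974% in meninges and 0.0360%, 0.0407% and 0.0429% in parenchyma, and 0.276% ± 0.0115 (SD, n = 3) in blood and 0.0973% ± 0.00903 in CSF. Blood held the highest share, CSF and meninges lay close together, and parenchyma was lowest.

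By gene, the blood mean exceeded the meninges mean for 65 of the 98, and by more than 2-fold for 44. Meninges was the highest of the 4 sites for 25 genes. Shares over all genes tested are not given here for these orders, which describe the set alone. In parenchyma 60 of the 98 had a mean under 1 CPM, and 24 of these were under 1 CPM in meninges too. Leaving out meninges library 2 lowered the count of genes lower by more than 2-fold from 98 to 73, and leaving out meninges library 3 raised it to 116.

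**Figure D3:**
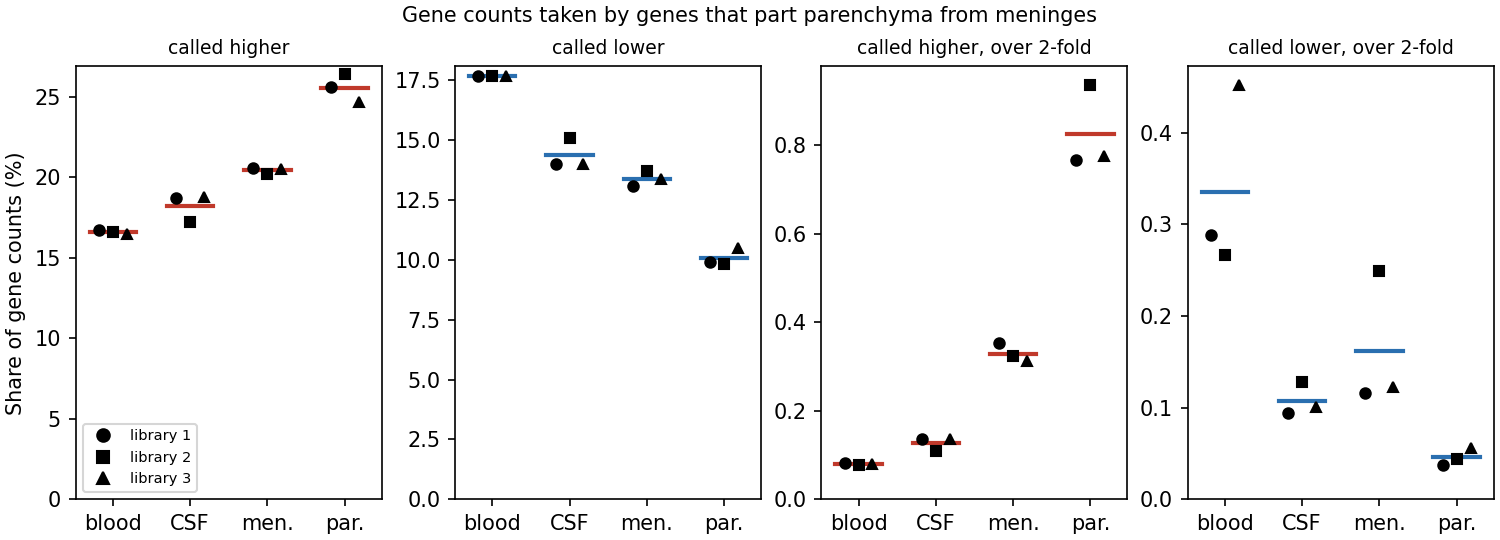
Share of gene counts (%, from 0) in each of the 12 libraries for the genes called higher (1305), lower (1123), higher by more than 2-fold (183) and lower by more than 2-fold (98) in parenchyma (par.) against meninges (men.). Points are libraries, with the symbol giving the library number, and lines are means of 3; the parenchyma and meninges libraries do not overlap in any panel, and meninges library 2 and blood library 3 lie above their groups in the last panel.

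Genes were named only if called, at 10 CPM or more in the higher group, alike in direction in all 3 pairs and without overlap. Larger rises were called among scarcer genes. Under this rule the largest rise was that of ENSRNOG00000022298. Its level was 18.3, 6.70 and 19.2 CPM in parenchyma libraries 1, 2 and 3, and 1.13, 0.562 and 1.64 CPM in the meninges libraries. All 3 parenchyma libraries lay above all 3 meninges libraries, and library 2 was the lowest at both sites. The parenchyma level was 16.2, 11.9 and 11.7 times the meninges level within pairs 1, 2 and 3, which are close to one another although the levels are not. The log2 fold change was 3.69 (SE 0.23, 95% interval 3.19 to 4.19, adjusted p = 1.31e-06 by edgeR), a 12.9-fold rise, on 715 counts in parenchyma and 46 in meninges. CSF libraries held 14, 2 and 2 counts and blood libraries 0 (adjusted p = 0.00330 for CSF against blood by edgeR), and a blood library with 0 counts allows a level of up to 3 counts, or 0.172 to 0.226 CPM.

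ENSRNOG00000012749 also rose in parenchyma. It stood at 12.8, 5.55 and 12 CPM in parenchyma and at 1.04, 0.562 and 1.20 CPM in meninges. Again library 2 was the lowest at both sites and the groups did not overlap. The ratio was 12.3, 9.88 and 9.98 within pairs 1, 2 and 3, and the log2 fold change 3.41 (SE 0.22, 95% interval 2.93 to 3.88, adjusted p = 5.26e-07 by edgeR), on 487 counts in parenchyma and 38 in meninges. CSF held 8 counts and blood 5 over 3 libraries each, and the difference between those sites did not pass the test (log2 fold change 0.44, SE 0.69, adjusted p = 0.662 by edgeR). For both genes the pairing narrowed the error: without the block the adjusted p was 0.00107 for ENSRNOG00000022298 and 0.000265 for ENSRNOG00000012749. The gene with the next largest rise under the same rule had a log2 fold change of 3.28.

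ENSRNOG00000014205 fell in parenchyma from a higher level. It stood at 71.9, 111 and 70.6 CPM in meninges and at 18.9, 24.2 and 24.0 CPM in parenchyma. The groups lay far apart, and the meninges level was 3.81, 4.59 and 2.94 times that in parenchyma within pairs 1, 2 and 3. The log2 fold change was -1.89 (SE 0.13, 95% interval -2.17 to -1.61, adjusted p = 9.67e-07 by edgeR), and without the block the adjusted p was 0.000121. In blood the gene stood at 272, 310 and 288 CPM and in CSF at 87.2, 105 and 64.7 CPM. The log2 difference of CSF minus blood was -1.77 (SE 0.12, adjusted p = 2.58e-08 by edgeR), and CSF and meninges libraries overlapped.

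ENSRNOG00000031207 had the largest fall under this rule, and the least even one of the 4 genes. It stood at 262, 1370 and 240 CPM in meninges libraries 1, 2 and 3 and at 8.48, 37.8 and 128 CPM in parenchyma. The groups did not overlap, but the ratio of meninges to parenchyma was 30.9, 36.3 and 1.87 within pairs 1, 2 and 3. The log2 fold change of -4.01 had an SE of 1.05 and a 95% interval from -6.26 to -1.77 (adjusted p = 0.0143 by edgeR). The call was lost without the block (adjusted p = 0.119) and without parenchyma library 1 (0.0700) or 2 (0.0990) or meninges library 1 (0.0642) or 2 (0.0808). It held without meninges library 3, with a log2 fold change of -4.93 (adjusted p = 0.00390), and without parenchyma library 3 (0.0289). Blood varied as widely, at 113, 34.7 and 1610 CPM, and CSF stood at 22.4, 206 and 80.1 CPM. The highest library of the series was blood library 3 and the next meninges library 2, which are also the 2 libraries with the largest shares of entries aligned to several places, 65.2% and 61.4%. The part of these shares in the result was not tested. Under the same rule the gene after ENSRNOG00000014205 had a log2 fold change of -1.54.

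**Figure D4:**
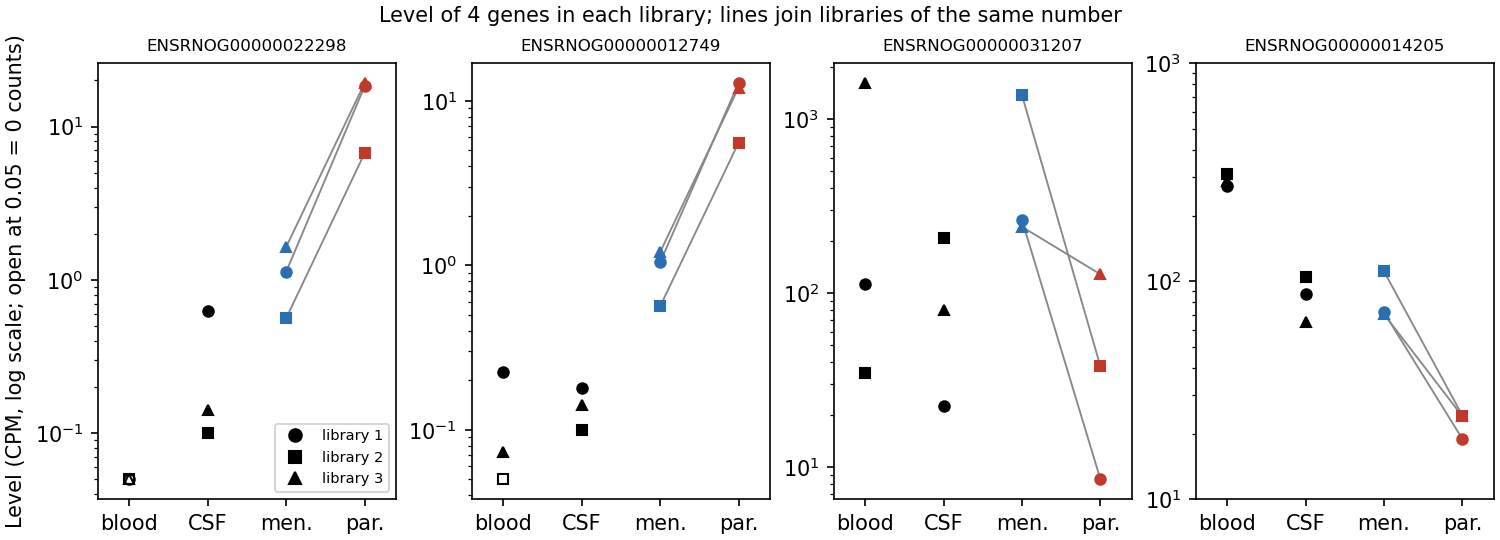
Level (CPM, log axis) of the 4 genes in each library of blood, CSF, meninges (men.) and parenchyma (par.), with symbols for the library number, grey lines joining meninges and parenchyma libraries of the same number, and open symbols drawn at 0.05 for libraries with 0 counts. The lines of the first 2 genes run almost parallel, while that of library 3 is much flatter than the others for ENSRNOG00000031207.

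The same genes were read in the contrast of CSF with blood, which compares other libraries than those of parenchyma and meninges. It comes from the same fit, however, and shares the estimate of the spread and the number terms with the main contrast. CSF T cells are outside the blood but not in the tissue. Of all genes tested 22.3% were higher in CSF than in blood and 24.9% were lower. Of the 1305 genes higher in parenchyma than in meninges, 418 (32.0%) were higher in CSF than in blood and 281 (21.5%) were lower. Of the 1123 genes lower in parenchyma, 516 (45.9%) were lower in CSF than in blood and 224 (19.9%) were higher. Seen from the other side, of all genes higher in CSF 16.3% were higher and 8.74% lower in parenchyma, and of all genes lower in CSF 9.83% were higher and 18% lower, against 11.3% and 9.77% of all genes tested. With 1 of the 6 parenchyma and meninges libraries left out, the share of lower genes that were also lower in CSF ranged from 45% to 54.4%. It was 54.4%, 47.4% and 53.4% without meninges library 1, 2 and 3.

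Among genes past 2-fold, the excess over all genes tested was small on the higher side and large on the lower side. The 183 genes more than 2-fold higher in parenchyma were called higher in CSF than in blood in 27.3% and lower in 25.7%, with a median log2 difference of CSF minus blood of -0.04. The 98 genes more than 2-fold lower in parenchyma were lower in CSF in 58.2% and higher in 11.2%, with a median of -1.27, against -0.02 over all genes tested. Most of the genes with a large fall in the tissue were thus lower in CSF than in blood as well. Of those with a large rise, 47% were called neither way, and the others lay on both sides in nearly equal numbers. Many of these 183 genes were read at very low levels, with means under 1 CPM for 106 in blood and 101 in CSF. Among the 98 genes it was 24 and 39. The summed share of the 183 in gene counts was 0.128% in CSF and 0.0788% in blood. The reading of the higher side depended on the cut. With both contrasts tested for a change beyond 1.5-fold, 23.4% of 137 genes higher in parenchyma were higher in CSF. Of all genes tested it was 4.47%. Of the 32 genes lower in parenchyma 81.2% were lower in CSF, against 6.10% of all genes tested. How many of the 137 were lower in CSF is not given here.

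**Figure D5:**
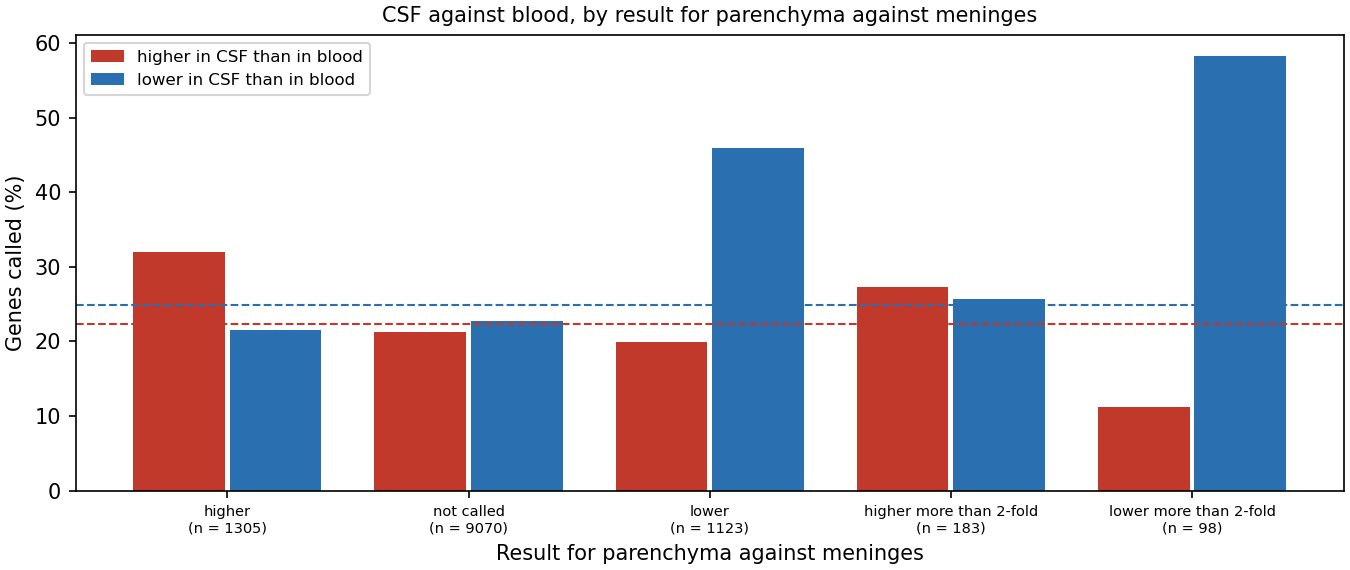
Percent of genes called higher (red) or lower (blue) in CSF than in blood, from 0, for genes grouped by their result in parenchyma against meninges (n genes below each pair of bars); dashed lines give the percentages over all genes tested, 22.3% and 24.9%. Genes lower in parenchyma have the tallest blue bars, 45.9% and 58.2% beyond 2-fold.

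The groups formed by both contrasts are described here by their levels over the 4 sites. Which of CSF and blood, and which of meninges and parenchyma, is higher in a group follows from how it was chosen, and the levels are no test. The 418 genes higher both in CSF than in blood and in parenchyma than in meninges had median levels of 89.9 CPM in parenchyma and 60.8 in meninges, over 52.0 in CSF and 31.9 in blood, and their share of gene counts was 10.3% ± 0.607 (SD, n = 3) in parenchyma against 4.36% ± 0.384 in blood. For 0 of them did the blood mean exceed the parenchyma mean. The 281 genes lower in CSF than in blood yet higher in parenchyma than in meninges had medians of 46.9 CPM in parenchyma and 43.6 in blood, and of 36.8 in meninges and 33.8 in CSF. Their share of gene counts was 2.43% ± 0.0675 in parenchyma and 2.22% ± 0.0617 in blood, with 2.00% ± 0.0572 in meninges and 1.72% ± 0.0956 in CSF, and for 53 of them (18.9%) blood was still above parenchyma.

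Among the genes lower in parenchyma, the 516 also lower in CSF than in blood had medians of 62.6 CPM in blood, 40.6 in CSF and 39.0 in meninges, with 29.5 in parenchyma, and went from 11.2% ± 0.0659 (SD, n = 3) of gene counts in blood to 6.89% ± 0.239 in meninges and 5.10% ± 0.186 in parenchyma. The 224 genes higher in CSF than in blood but lower in parenchyma than in meninges had medians of 66.1 CPM in CSF and 58.0 in meninges, over 49.6 in blood and 46.2 in parenchyma, with blood below parenchyma for 84 (37.5%). They took 3.12% ± 0.0868 of gene counts in CSF and 2.76% ± 0.0254 in meninges, over 2.29% ± 0.0364 in blood and 2.15% ± 0.0729 in parenchyma.

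For 1242 of the 1305 higher genes (95.2%) parenchyma had the highest mean of the 4 sites, and for 1031 of the 1123 lower genes (91.8%) the lowest, against 27.2% and 30.4% of the genes not called. The means ran in the order blood, CSF, meninges, parenchyma, each step upward, for 544 of the higher genes (41.7%), and each step downward for 460 of the lower genes (41.0%). Among genes not called the shares were 11.2% and 13.2%. Since the calls fix which of meninges and parenchyma is higher, these shares describe the called genes and are no test.

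For the 9070 genes not called, the intervals show how far a difference could still reach. The 95% interval of the fold change lay within 1.5-fold either way for 6880 of them (75.9%) and within 2-fold for 8081 (89.1%). For the rest the interval took in a difference of 2-fold in at least 1 direction.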

How the data were processed

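RNA of sorted T cells was sequenced in 12 libraries, made with Illumina TruSeq protocols for messenger RNA per the labels' protocols. Each deposited file gives raw read counts (whole numbers) for 26405 Ensembl identifiers and 5 summary lines, which were left out. HTSeq, STAR, SAMtools, DESeq2 and CASAVA 1.8.2 are listed, per the submitters' processing notes, without their roles. Build, annotation and strand setting: not given in the sources used here. In each file 35.8% to 65.2% of entries were listed as aligned to several places, so near-identical genes may be under-counted, and reads of overlapping antisense genes may be mixed.

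Groups and numbers were taken from titles. Counts were fitted in R 4.3.3 with edgeR 4.0.16 (filterByExpr, TMM, quasi-likelihood F test) over all 12 libraries, with compartment and library number as terms. The contrasts were parenchyma minus meninges and CSF minus blood, two-sided, with Benjamini-Hochberg adjustment over the 11498 genes tested. The biological coefficient of variation was 7.21% with the number as a block and 10.7% without it. The comparison was set out with the number pairing libraries, and the block was kept as each same-number correlation of deviations exceeded 0.1. That check is given with the results. Libraries of 1 group differed by 3.46 to 28.9 times counting noise (chi-square per degree of freedom), and each was counted as 1 replicate. CPM use TMM-scaled library sizes, and log2 CPM a prior count of 2. Standard errors come from the F statistic.

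The tested genes held at least 99.9% of gene counts. At the depths given, 3 counts correspond to 0.136 to 0.266 CPM; such limits cover counting error only.

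Genes to be named had to be called, reach 10 CPM in the higher group, move the same way in all 3 pairs and not overlap; 931 rose and 774 fell under this rule. The plan named 12 each way with a symbol; without symbols, the 2 largest each way are given. The 33 planned gene lists, 22 of T cell programmes and 11 of other cell types, need symbols and could not be used. The comparison and lists were chosen with earlier results of these data known. Functions were tested on simulated data. Alternatives were another tool (DESeq2 1.42.0), scaling, filter, threshold, depth and set of libraries.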

Additional observations from a re-analysis of the deposited data

How the results depend on the processing

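Genes higher and lower in parenchyma numbered 1305 and 1123 with the replicate block. They were 757 and 618 with no replicate block, 1972 and 1743 with the 6 libraries alone and the block, 674 and 496 with the 6 alone and no block, 733 and 563 at an adjusted p under 0.01, and 137 and 32 beyond 1.5-fold, where 81.1% of genes called were higher. Without both libraries numbered 1, 2 or 3 they were 729 and 525, 677 and 517, and 787 and 725; leaving out numbers 1 and 2 was chosen after the data were seen. With 1 of the 6 libraries left out they ran from 770 to 1153 and from 652 to 998. Both counts stayed within 1.5 times with DESeq2, median-ratio scaling, scaling by library size, no filter, a stricter filter and thinning to the smallest library, and under none of the 20 alternatives was a gene called in both analyses in opposite directions. A stricter threshold can only shorten the lists; for the other settings the cause was not tested.

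Of genes higher in parenchyma 32.0% were higher in CSF than in blood, against 22.3% of all genes tested. The first share was 29.5% with no block (against 17.5%), 36.7% without the filter (13.3%) and 23.4% beyond 1.5-fold (4.47%). It was 37.4% and 37.7% without both libraries numbered 1 or 2, and 31.0% to 39.1% with 1 library left out. Of genes lower in parenchyma 45.9% were lower in CSF, against 24.9%. That share was 50.4% at an adjusted p under 0.01 (against 18.2%), 81.2% beyond 1.5-fold (6.10%, on 32 genes), 54.9% and 53.8% without both libraries numbered 1 or 2, and 45% to 54.4% with 1 library left out. In each alternative with these libraries both shares exceeded those of all genes tested.

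ENSRNOG00000022298, ENSRNOG00000012749 and ENSRNOG00000014205 passed the threshold in all 20 alternatives, with log2 fold changes of 3.49 to 3.90, 3.28 to 3.5 and -2.08 to -1.72. ENSRNOG00000031207 passed in 11 of 20, from -5.08 to -3.16, with adjusted p up to 0.169.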

Other observations

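The library number itself went with a difference in many genes. In the fit over all 12 libraries, an F test of the number, with Benjamini-Hochberg adjustment in edgeR, called 1840 of 11498 genes (16.0%), and 142 of these had a range of more than 2-fold over the 3 numbers. For 1329 of the 1840 genes number 2 lay farthest from the middle of the 3, for 369 number 3 and for 142 number 1. Of the 2428 genes that part parenchyma from meninges 540 (22.2%) also differed by number, against 14.3% of the genes not called. Among the 1053 genes called only when the number was a term, 346 (32.9%) differed by number, against 14.1% of the 1375 called with and without it. Such an excess follows in part from how the 1053 were chosen, since the number term takes up spread that goes with the number. It is no test.

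A small set of genes was high in single libraries. In meninges library 2, 8 tested genes were at least 4-fold above both other meninges libraries and at 1 CPM or more, and 5 of these 8 were also at least 4-fold above both other blood libraries in blood library 3, where 30 of the 11498 tested genes stood out in this way. ENSRNOG00000031207 was among the 5, and it was the only 1 of the 8 called lower in parenchyma. In meninges libraries 1 and 3 the count of such genes was 1 and 2, and in parenchyma libraries 1, 2 and 3 it was 0, 0 and 3. This count was chosen after the data were seen.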
